A study of Mus musculus with 6 samples.

Results

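The genes described here are 10 imprinted genes of the mouse, Plagl1, Impact, Snrpn, Igf2r, Kcnq1ot1, Zrsr1, Mest, Peg3, Grb10 and Nap1l5, named because imprinted loci are known targets of KAP1 (TRIM28). They were found by symbol among the 37991 genes of the deposited count table, where 8 of the 10 had a row. The libraries hold RNA of splenic regulatory T cells (Treg), a Foxp3-positive CD4+ lineage that dampens immunity, which were enriched with a CD4 kit and then sorted for YFP. The labels give 3 wild type, KAP1 sufficient libraries and 3 KAP1 deficient libraries. They name neither the driver of the deletion or of YFP, nor age or sex, nor the animal behind each library. The spread that enters the p-values is therefore that between libraries and may be technical. The strain label reads C57BL/6 for the sufficient libraries and for deficient replicate 1, and C57BL/7 and C57BL/8 for deficient replicates 2 and 3.

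An imprinted gene is transcribed mainly from the copy inherited from one parent, because DNA methylation laid down in egg or sperm marks the copies differently. The methylated copy of the control region can lie on the silent or on the expressed chromosome, depending on the locus. In the early embryo KAP1 is brought to these methylated imprinting control regions by the zinc finger proteins ZFP57 and ZFP445 and helps to keep the methylation while the rest of the genome loses it. ZFP57 recognises the methylated hexamer TGCCGC. Counts per gene hold no information on which parental copy was transcribed, so the values below are total RNA levels, and fewer expressing cells cannot be told apart from less RNA per cell.

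The promoters of 4 members are printed because they differ in this hexamer and in expression. Plagl1 was the member that moved with Trim28, Igf2r and Zrsr1 were expressed without such a difference, and Nap1l5 was near 0. Each sequence runs from 250 bases before to 50 bases after a start of the gene listed in RefSeq on GRCm38.p6. It is written 5′ to 3′ on the gene's strand, with TGCCGC or its reverse complement GCGGCA in capitals. The Plagl1 window lies inside the span of the gene given below, so it is an inner start, and the outermost start was not searched. The windows are chr10:13090582-13090881 on the plus strand for Plagl1, chr17:12769657-12769956 on the minus strand for Igf2r, chr11:22971755-22972054 on the plus strand for Zrsr1 and chr6:58907077-58907376 on the minus strand for Nap1l5.
Plagl1: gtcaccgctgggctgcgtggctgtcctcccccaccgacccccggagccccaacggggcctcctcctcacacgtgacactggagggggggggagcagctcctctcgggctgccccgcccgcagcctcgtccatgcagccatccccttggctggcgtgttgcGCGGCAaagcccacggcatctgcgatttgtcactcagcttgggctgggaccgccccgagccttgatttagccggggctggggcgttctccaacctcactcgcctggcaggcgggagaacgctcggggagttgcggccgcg
Igf2r: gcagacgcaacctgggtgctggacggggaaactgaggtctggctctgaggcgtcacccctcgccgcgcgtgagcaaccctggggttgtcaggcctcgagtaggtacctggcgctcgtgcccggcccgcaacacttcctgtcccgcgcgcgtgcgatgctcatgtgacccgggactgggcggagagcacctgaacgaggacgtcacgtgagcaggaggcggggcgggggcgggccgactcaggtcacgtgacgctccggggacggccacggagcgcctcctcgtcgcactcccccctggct
Zrsr1: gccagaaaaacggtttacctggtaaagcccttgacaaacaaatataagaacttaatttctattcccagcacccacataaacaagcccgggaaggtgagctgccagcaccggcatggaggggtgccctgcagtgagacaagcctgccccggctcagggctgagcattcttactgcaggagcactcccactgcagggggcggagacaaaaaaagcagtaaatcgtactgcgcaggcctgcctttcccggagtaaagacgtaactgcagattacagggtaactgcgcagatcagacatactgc
Nap1l5: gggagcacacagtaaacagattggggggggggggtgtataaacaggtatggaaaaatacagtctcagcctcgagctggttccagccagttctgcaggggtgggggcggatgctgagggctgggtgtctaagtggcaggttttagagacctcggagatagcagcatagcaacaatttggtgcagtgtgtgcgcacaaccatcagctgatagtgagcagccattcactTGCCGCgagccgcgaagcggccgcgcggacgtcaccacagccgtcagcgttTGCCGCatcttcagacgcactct
The Plagl1 window holds the hexamer once, starting at base 161 of the window and on the opposite strand. The Nap1l5 window holds it 2 times, starting at bases 227 and 278, and those of Igf2r and Zrsr1 do not hold it. CpG dinucleotides numbered 26 in the Plagl1 window, 34 in that of Igf2r, 17 in that of Nap1l5 and 10 in that of Zrsr1, against a median of 7 over all promoters. The promoter table had entries for 9 of the 10 members (not Impact), and 5 of these 9 had the hexamer on either strand in at least 1 of their windows (Plagl1, Grb10, Mest, Nap1l5 and Snrpn). Counted by window, 6 of the 15 member windows held it, 2 of the 6 being nearly the same window of Mest. Of all 32817 promoter windows of 300 bases, 11.6% held it. That share is per window and not per gene. The hexamer itself contains a CpG, and no share was computed for windows of like CpG content. These shares therefore do not show an excess of the hexamer in the members. A match is a string of letters and not a measured binding site. The windows were set by RefSeq starts and need not be imprinting control regions. A window without the hexamer therefore says nothing about the control region of that gene. The 4 members were picked with their expression known, so they cannot show whether the hexamer goes with expression.

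Trim28 itself did not follow the labels in all libraries. Libraries labelled sufficient had 2462 (replicate 1), 2483 (replicate 2) and 218 (replicate 3) Trim28 counts, and libraries labelled deficient had 232, 185 and 2544. The members were therefore compared by label and also by Trim28 level. The high-Trim28 libraries were those labelled sufficient replicates 1 and 2 and deficient replicate 3. The low-Trim28 libraries were those labelled sufficient replicate 3 and deficient replicates 1 and 2. The second division rests on a measured transcript and is not the study's grouping, so it compares libraries and not genotypes. Library totals were 9954344 to 10994745 counts, and 3 counts, the limit that a count of 0 allows, stood at 0.273 to 0.301 CPM (a gene's count scaled by its library total). This limit covers counting error only.

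The 7 Treg and T cell markers, Foxp3 among them, were all abundant, with a summed level of 4485 to 4549 CPM in the high-Trim28 and 4283 to 4423 CPM in the low-Trim28 libraries, ranges that did not overlap. The sums of 3 lists for other cells did not overlap between the Trim28 levels either. The 6 B cell markers summed to 599 to 684 CPM in the high-Trim28 and 538 to 575 CPM in the low-Trim28 libraries, nearly all of it Ighm, while the defining gene Ms4a1 had 0 or 1 count in each library. The 3 natural killer cell markers summed to 2.18 to 2.77 and 8.74 to 10.8 CPM, all of it Klrb1c, with Ncr1 and Klre1 at 0 counts in every library. The 3 stromal markers summed to 1.28 to 1.58 and 0.496 to 0.804 CPM, nearly all of it Col1a1, with Cdh5 and Pdgfrb at 0 or 1 count. The 5 myeloid markers summed to 1.67 to 1.91 and 1.75 to 3.17 CPM, mostly Itgam with 12 to 27 counts per library. The level of Itgam was 1.40 ± 0.226 and 2.01 ± 0.590 CPM at high and low Trim28 (SD, n = 3 each), and its ranges overlapped there but not between the labels, where deficient libraries were higher. The 2 CD8 T cell markers summed to 11.6 to 14.8 and 10.2 to 12.9 CPM, nearly all of it Cd8b1, and the 4 dendritic markers to 0.393 to 0.728 and 0.397 to 0.971 CPM, nearly all of it Xcr1. The myeloid gene Cd14, the dendritic genes Siglech and Clec9a, and the erythroid gene Alas2 were at 0 in every library. The mitochondrial share of counts was 1.61% to 2.1% in the high-Trim28 and 1.33% to 1.41% in the low-Trim28 libraries. The part of these differences in the results below was not tested.

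Under the labels no member passed the test. Of the 8 with a row, 4 had enough counts to be tested (Plagl1, Impact, Igf2r and Zrsr1), and edgeR's quasi-likelihood test with Benjamini-Hochberg adjustment over 12158 genes called 0 of these 4, none at an unadjusted p under 0.05 either. Over all genes it called 2 (0.0165%), with 944 (7.76%) at an unadjusted p under 0.05. The median log2 fold change was -0.08 over the 4 members and -0.00 over all genes tested. DESeq2 called 0 members as well. By Trim28 level 1 of the 4 members was called, Plagl1, against 8.23% of all tested genes (4.61% higher and 3.61% lower where Trim28 was low). Over all genes this was 561 higher and 439 lower, whereas upper-quartile factors gave 489 higher and 562 lower. In the main Trim28-level fit the median log2 fold change was 0.02 over the 4 members and 0.00 over all genes tested. With upper-quartile factors it was -0.02 over all genes tested.

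Plagl1 encodes a zinc finger transcription factor, also named ZAC1, that restrains cell proliferation, and its paternal copy is the expressed one. The gene (ENSMUSG00000019817, protein coding) lies on chromosome 10, 13060504 to 13131694, in GENCODE M21 on the assembly of mm10. Replicates 1, 2 and 3 had 517, 501 and 307 counts under the sufficient label and 309, 292 and 535 under the deficient label. These counts are 51.2, 49.2 and 29.8 CPM and 30.7, 29.3 and 48.7 CPM. The labelled groups overlapped, and each held libraries of both levels. Divided by Trim28 level the ranges did not overlap, with 48.7 to 51.2 CPM in the high-Trim28 and 29.3 to 30.7 CPM in the low-Trim28 libraries. Such separate ranges were found for 26.4% of all tested genes.

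The label comparison of Plagl1 gave 43.4 ± 11.8 CPM in sufficient and 36.2 ± 10.8 CPM in deficient libraries (SD, n = 3 each). The log2 fold change of deficient over sufficient was -0.26 ± 0.29 (SE, edgeR adjusted p = 0.827), within the spread between replicates, and ranged from -0.12 without sufficient replicate 1 to -0.53 without deficient replicate 3. By Trim28 level Plagl1 was lower where Trim28 was low, at 29.9 ± 0.668 against 49.7 ± 1.32 CPM (SD, n = 3 each). The log2 fold change was -0.72 ± 0.07 (SE), a level 1.65-fold lower (edgeR adjusted p = 1.1e-05). The counting error of a single library was 4.32% to 5.85% of its Plagl1 count. With both libraries numbered 3 left out, the labels and Trim28 go together in the remaining 4 libraries. A fit of these 4 is thus part of the Trim28-level comparison and not separate evidence. Plagl1 had a log2 fold change of -0.74 ± 0.08 under the labels there (edgeR adjusted p = 1.6e-05). That fit, with 2 libraries a group, called 2 of the 4 members (Plagl1 and Impact) and 17.4% of all genes. The authors' deposited table, whose sign is positive for genes higher under the sufficient label, lists Plagl1 at 0.65 ± 0.09 (SE) on the log2 scale and an adjusted p of 1.19e-10. The authors' deposited table calls 6.87% of the genes with an adjusted p. It lists Trim28 at 3.11 ± 0.08 and Setdb1, a methyltransferase gene described among the maintenance genes, at -1.19 ± 0.06 (log2 fold changes with SE in the authors' deposited table). The 6 deposited libraries as labelled gave -0.90 ± 1.46 for Trim28 (edgeR adjusted p = 0.889) and 0.40 ± 0.59 for Setdb1 (edgeR adjusted p = 0.877), here as deficient over sufficient. For Plagl1, Trim28 and Setdb1 the differences in the authors' deposited table were thus larger than those between the labelled libraries. By Trim28 level, as low over high, the log2 fold changes were -0.72 for Plagl1 and 1.29 for Setdb1. No source used here states how the samples of the authors' comparison were assigned to groups, and this was not tested.

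Among 10176 named genes with a mean over the libraries of log2 CPM at or above 1 (unnamed gene models left out), Trim28 was the gene whose log2 CPM ran most like that of Plagl1 over the 6 libraries (Pearson r = 0.998). Slc1a5, a glutamine transporter gene, came next (r = 0.997), with 4410, 4312 and 958 counts in sufficient and 947, 906 and 4784 in deficient libraries. The 6 libraries fall into 2 separate clusters for each of these genes, so r describes that separation, and 141 genes reached an r of 0.95 or more with Plagl1.

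**Figure D1:**
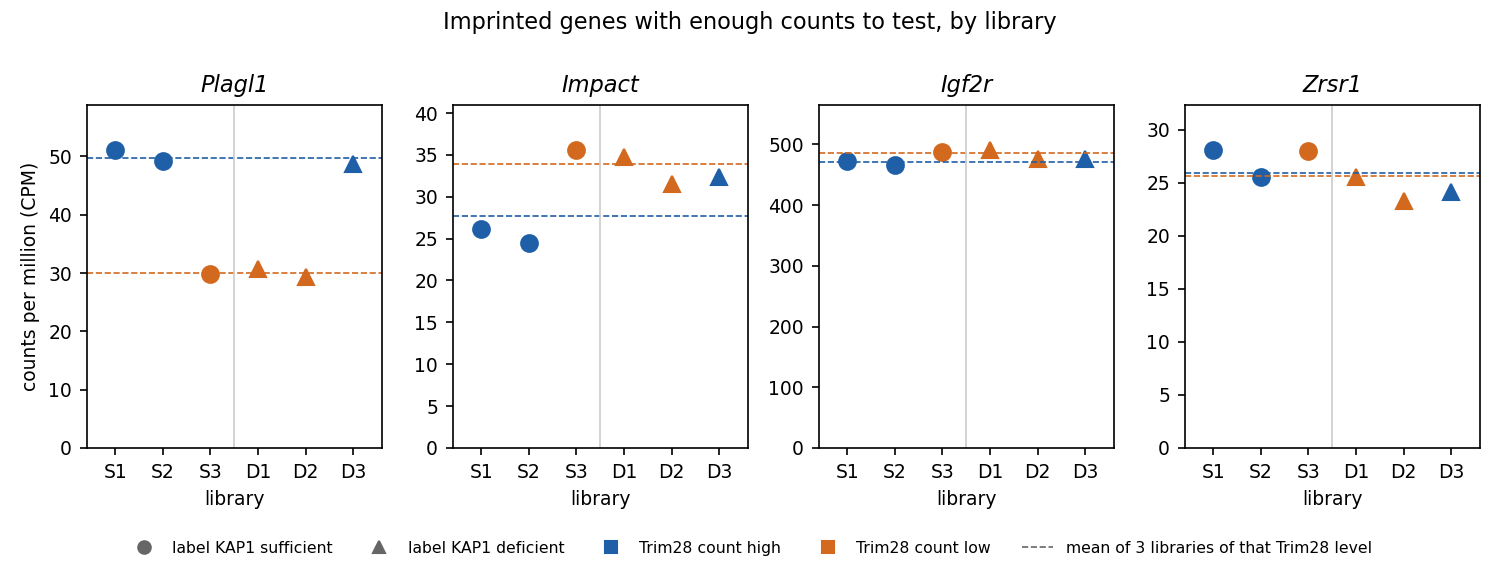
CPM (y axis, from 0) of the 4 tested members in each library, with libraries labelled sufficient (S1 to S3, circles) and deficient (D1 to D3, triangles) on the x axis and colour for the Trim28 count. Plagl1 separates by colour, at 48.7 to 51.2 against 29.3 to 30.7 CPM, and does not separate by label; dashed lines are means of 3 libraries.

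Impact encodes a protein that restrains the stress kinase GCN2, and its paternal copy is the expressed one. The gene (ENSMUSG00000024423) lies on chromosome 18, 12955852 to 12992950. Its levels were 26.1, 24.5 and 35.6 CPM in sufficient and 34.7, 31.5 and 32.4 CPM in deficient libraries. Sufficient replicates 1 and 2 were the lowest, and the other 4 libraries lay together, including deficient replicate 3, in which Trim28 was high. The groups overlapped both by label and by Trim28 level.

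The log2 fold change of Impact was 0.19 ± 0.14 (SE) by label (edgeR adjusted p = 0.71) and 0.30 ± 0.10 for low against high Trim28 (edgeR adjusted p = 0.086), neither past the threshold. Without single libraries the label value ran from 0.08 (without sufficient replicate 2) to 0.38. Impact passed it in the 4 libraries without replicates 3 (0.40 ± 0.10, edgeR adjusted p = 0.0123) and under the labels without sufficient replicate 3 (0.38, adjusted p = 0.0326). By Trim28 level it passed without deficient replicate 3 (0.43, edgeR adjusted p = 0.00137) and with the replicate number as a block (0.31, edgeR adjusted p = 0.0414). It also passed by Trim28 level with no filter (0.30, edgeR adjusted p = 0.0199). In the authors' deposited table its log2 fold change was -0.23 ± 0.10 (SE), the sign for higher in deficient cells, with an adjusted p of 0.192. The genes most like Impact over the 6 libraries were Siah1a (r = 0.996) and Arap2 (r = 0.993), and 148 genes reached 0.95.

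Igf2r encodes the cation-independent mannose 6-phosphate receptor, which carries lysosomal enzymes and takes up insulin-like growth factor 2. Its maternal copy is the expressed one, and the paternal copy is silenced by the antisense transcript Airn, which starts inside Igf2r. Igf2r (ENSMUSG00000023830) lies on chromosome 17, 12682406 to 12769664. It was the most abundant of the 8 members with a row and varied least among the 4 tested, with 472, 466 and 488 CPM in sufficient and 492, 476 and 476 CPM in deficient libraries. The lowest low-Trim28 library (476.3 CPM) lay just above the highest high-Trim28 library (475.8 CPM), so these ranges did not overlap, as for 26.4% of all tested genes.

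The log2 fold change of Igf2r was 0.02 ± 0.05 (SE) by label (edgeR adjusted p = 0.949) and 0.05 ± 0.05 by Trim28 level (edgeR adjusted p = 0.59), so neither difference passed the test. The sign under the labels turned in 3 other settings, all at sizes under 0.01. Airn, which overlaps Igf2r on the other strand (12741311 to 12860136), had 163, 133 and 125 counts in sufficient and 124, 108 and 121 in deficient libraries. Sufficient replicate 1 was the highest and the labelled groups overlapped, with a log2 fold change of -0.28 ± 0.14 (SE, edgeR adjusted p = 0.654), or -0.15 without sufficient replicate 1. By Trim28 level the value was -0.17 ± 0.14 (edgeR adjusted p = 0.519), and it was -0.01 without sufficient replicate 1. The authors' deposited table, as sufficient over deficient, gives Airn a log2 fold change of 0.03 ± 0.13 (SE, adjusted p = 0.958). Its mean level there is 88.8 against a mean deposited count of 129, so the level of Airn is uncertain. There were 2.28 to 3.42 Airn counts per 100 Igf2r counts. No source used here states a strand setting, so reads where these 2 genes overlap may have been counted for either.

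Zrsr1, a retrotransposed gene for a relative of the splicing factor U2AF, lies inside Commd1 on the opposite strand (ENSMUSG00000044068, chromosome 11, 22972005 to 22976496). Its paternal copy is the expressed one. Its levels were 28.1, 25.5 and 28.0 CPM in sufficient and 25.5, 23.3 and 24.1 CPM in deficient libraries. Every deficient library lay below every sufficient one, by as little as 25.49 against 25.54 CPM, and ranges that did not overlap were found for 12.8% of all tested genes under the labels. The log2 fold change of -0.17 ± 0.09 (SE) did not pass (edgeR adjusted p = 0.654).

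By Trim28 level Zrsr1 had a log2 fold change of -0.01 ± 0.10 (SE, edgeR adjusted p = 0.977). Its 3 high-Trim28 libraries spanned 24.1 to 28.1 CPM and its 3 low-Trim28 libraries 23.3 to 28.0 CPM. Commd1, a copper metabolism gene, had 198, 181 and 176 counts in sufficient and 176, 201 and 190 in deficient libraries, and its log2 fold changes were 0.01 ± 0.11 in both comparisons. The gene most like Zrsr1 over the 6 libraries was Tcf25 (r = 0.983), followed by Med1 (r = 0.979). As a retrotransposed copy, Zrsr1 may share reads with its parent gene, so its counts are uncertain.

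**Figure D2:**
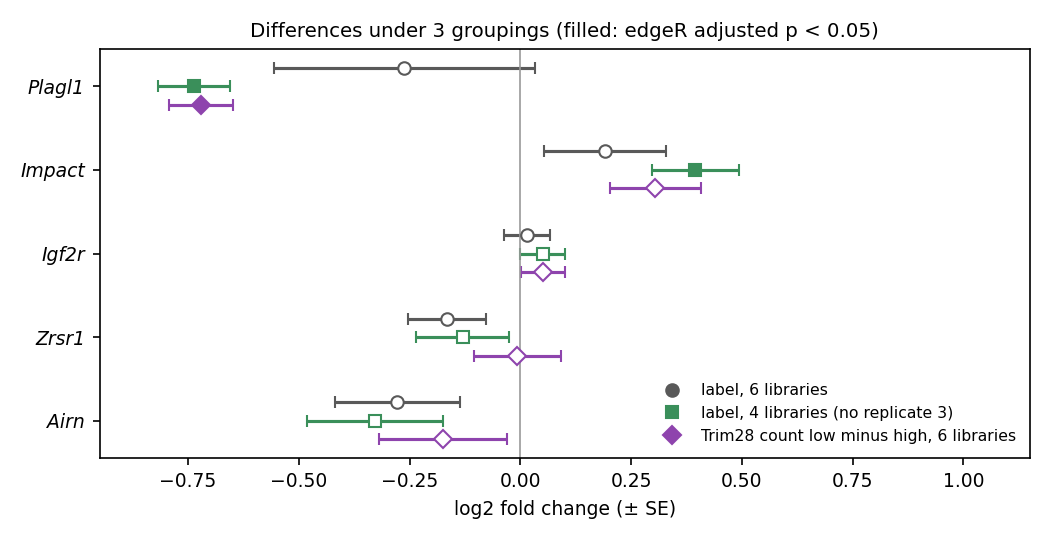
Log2 fold changes with their SE for the 4 tested members and Airn by label in 6 libraries, by label in the 4 libraries without replicates 3, and for low minus high Trim28 in 6 libraries. In the 4 libraries the labels and Trim28 levels coincide. Filled symbols passed an edgeR adjusted p of 0.05: Plagl1 at -0.74 and -0.72, and Impact at 0.40 in the 4 libraries.

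Another 4 members were at or near 0 counts in every library. Mest, a gene for a hydrolase-like protein of mesoderm, had 1 count in deficient replicate 3 and 0 in the other 5 libraries. Peg3, a zinc finger gene, and Nap1l5, a retrotransposed gene for a nucleosome assembly protein relative, each had 1 count in sufficient replicate 1 and 1 in deficient replicate 3, and 0 elsewhere. Grb10, which encodes an adaptor that damps insulin receptor signalling, had 1, 2 and 0 counts in sufficient and 0, 2 and 0 in deficient libraries. None of these 4 exceeded the 3 counts that a count of 0 allows in any library, whatever its label or Trim28 level, so no fold change is given. Herc3, which contains Nap1l5 on the other strand, had 1180 to 1610 counts, and Copg2, whose end overlaps Mest, had 531 to 628. Usp29 and Zim1, the neighbours of Peg3, were at 0 in every library.

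The authors' deposited table gives Mest a mean level of 4.64 and Nap1l5 of 8.59, against mean deposited counts of 0.167 and 0.333. For Zrsr1 it gives 382 against 264, whereas for Plagl1 (385 against 410), Impact (313 against 317) and Igf2r (4816 against 4911) the 2 tables lie close together. Over 10412 genes with a mean of at least 10 counts, the median ratio of the authors' mean level to the mean count was 0.987, and 87.5% of genes lay within 1.5-fold. In that table neither Nap1l5 (log2 fold change 0.09, adjusted p = 0.753), Zrsr1 (-0.07, adjusted p = 0.819) nor Igf2r (-0.05, adjusted p = 0.766) passed, and Mest has no adjusted p.

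The identifiers of the remaining 2 members, Snrpn and Kcnq1ot1, had no row in the count table. Kcnq1ot1 is a long noncoding RNA, made from the paternal copy within Kcnq1, that silences neighbouring genes in cis. The authors' deposited table gives it a mean level of 1306, a log2 fold change of 0.04 ± 0.07 (SE) and an adjusted p of 0.859. Kcnq1, on the opposite strand of the same region of chromosome 7, was at 0 counts in all 6 libraries. Snrpn encodes a small nuclear ribonucleoprotein that is abundant in brain, and the authors' deposited table lists it at a mean of 0. A row that GENCODE M21 names Gm38393 overlaps Snrpn on the same strand (chromosome 7, 59974149 to 60005064). It had 14, 5 and 7 counts in sufficient and 10, 8 and 9 in deficient libraries, and was looked at after the missing row was seen. Whether the annotation behind the counts gave reads of Snrpn to this row is not known from the sources used here, so Snrpn may have been counted there.

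Levels of different genes were compared per kilobase of annotated exons, as CPM per kilobase averaged over the 6 libraries. Igf2r stood at 51.4 ± 1.03 (SD, n = 6), Impact at 6.01 ± 0.888, Zrsr1 at 5.73 ± 0.437 and Plagl1 at 5.09 ± 1.39 CPM per kilobase. Igf2r was above the other 3 in every library, and the ranges of Impact, Zrsr1 and Plagl1 overlapped one another. Among 35 tested imprinted genes Igf2r ranked 3, Impact 21, Zrsr1 22 and Plagl1 25. The place of Plagl1 differed with Trim28 level. Its high-Trim28 libraries stood at 6.54, 6.29 and 6.22 CPM per kilobase, above Zrsr1 in all 3 and above Impact in 2 of these libraries. Its low-Trim28 libraries stood at 3.81, 3.92 and 3.75 CPM per kilobase, below both genes in all 3. The ranges of Igf2r and its neighbours in that order, Tspan32 and Gnas, did not overlap, while that of Impact overlapped its neighbours. The exon lengths come from GENCODE M21, which may differ from the annotation the counts were made with.

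**Figure D3:**
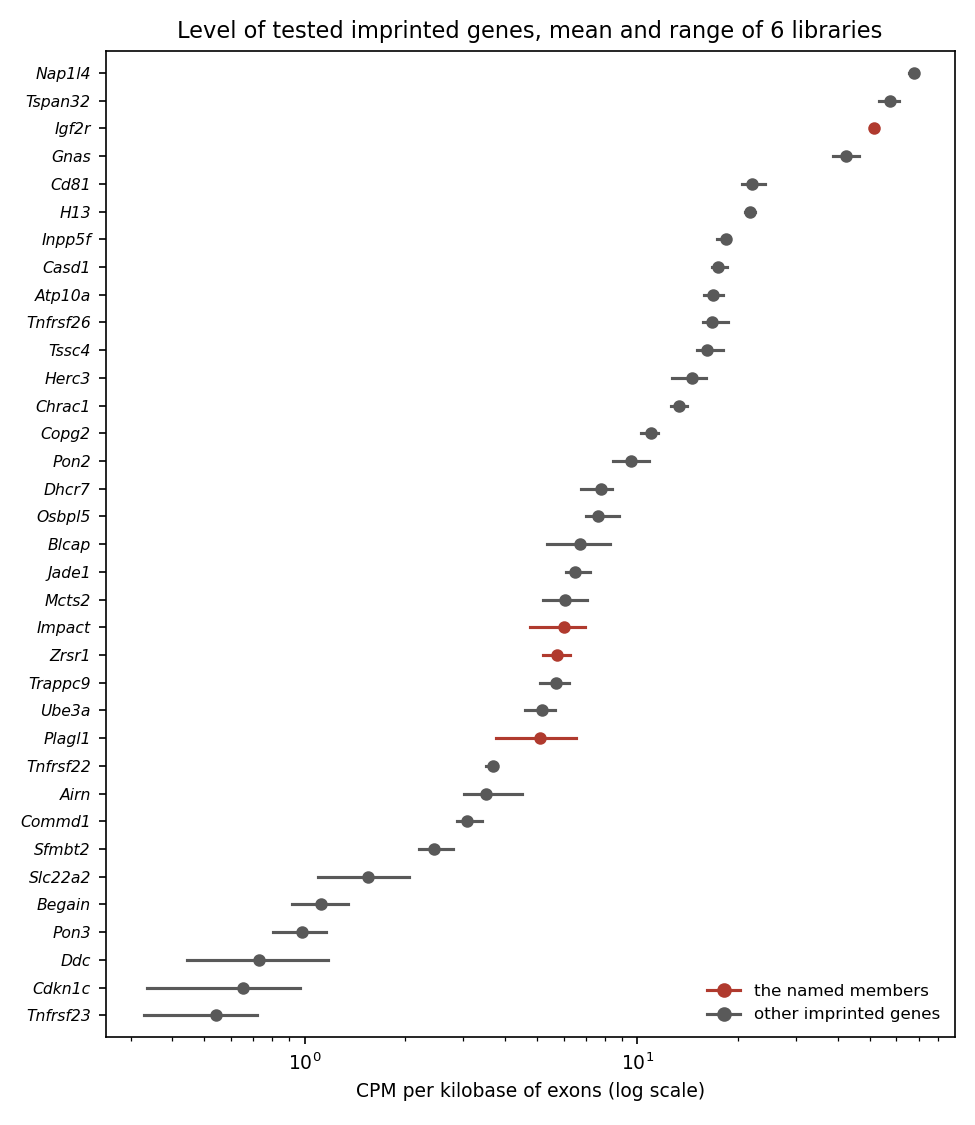
Level per kilobase of exons (log axis) of the 35 tested imprinted genes, with the mean as a point and the range over 6 libraries as a line. Igf2r, at 51.4 CPM per kilobase, ranks 3, and Impact, Zrsr1 and Plagl1 lie between 5.09 and 6.01.

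A list of 78 other genes reported as imprinted in at least some mouse tissues placed the members among their kind. Of the 69 with a row, 34 had at most 3 counts in every library, 22 of them 0 throughout, and 31 were tested. Under the labels 0 of the 31 were called by edgeR, with 1 at an unadjusted p under 0.05, beside 0.0165% of all genes. In the 4 libraries without replicates 3, 3 were called higher and 2 lower, beside 17.4% of all genes. By Trim28 level 2 of the 31 were called, 1 higher (4.61% of all tested genes) and 1 lower (3.61%). The median log2 fold change was 0.01 for these 31 genes and 0.00 over all 12158 genes. In size, irrespective of sign, the medians were 0.10 and 0.12. Ranges did not overlap for 10 of the 31, beside 26.4% of all tested genes.

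Ddc, which encodes a decarboxylase of amine synthesis and neighbours Grb10 on chromosome 11, was higher where Trim28 was low. It had 1.98, 2.46 and 5.24 CPM in sufficient and 3.87, 3.62 and 2.36 CPM in deficient libraries, and the 3 highest were the low-Trim28 libraries. Ddc differed by a log2 value of 0.91 ± 0.23 (SE) and passed (edgeR adjusted p = 0.0247). The call was lost with DESeq2 (adjusted p = 0.1) and without any 1 of the libraries labelled sufficient 1, sufficient 2, sufficient 3 or deficient 1 (0.83, 0.97, 0.73 and 0.97). Pon2, a paraoxonase gene on chromosome 6, was lower, at 79.6, 79.5 and 65.9 CPM in sufficient and 61.8, 63.5 and 72.2 CPM in deficient libraries. Its log2 fold change was -0.26 ± 0.06 (edgeR adjusted p = 0.0216), and the call was lost without any single library other than deficient replicate 3 (-0.23 to -0.29). Under the labels the same 2 genes had log2 fold changes of 0.02 ± 0.38 (Ddc, edgeR adjusted p = 0.993) and -0.19 ± 0.09 (Pon2, edgeR adjusted p = 0.649). Pon2 passed without sufficient replicate 3 (-0.27, edgeR adjusted p = 0.0478). In the authors' deposited table, as sufficient over deficient, neither Ddc (-0.34, adjusted p = 0.104) nor Pon2 (0.23, adjusted p = 0.0561) passed. That table calls Tspan32 (-0.19 ± 0.06 (SE), adjusted p = 0.015) and Rian (0.42 ± 0.10, adjusted p = 0.00178) of this list. It calls 6.87% of its genes with an adjusted p. Rian had a mean level of 13.2 there and no row in the count table.

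**Figure D4:**
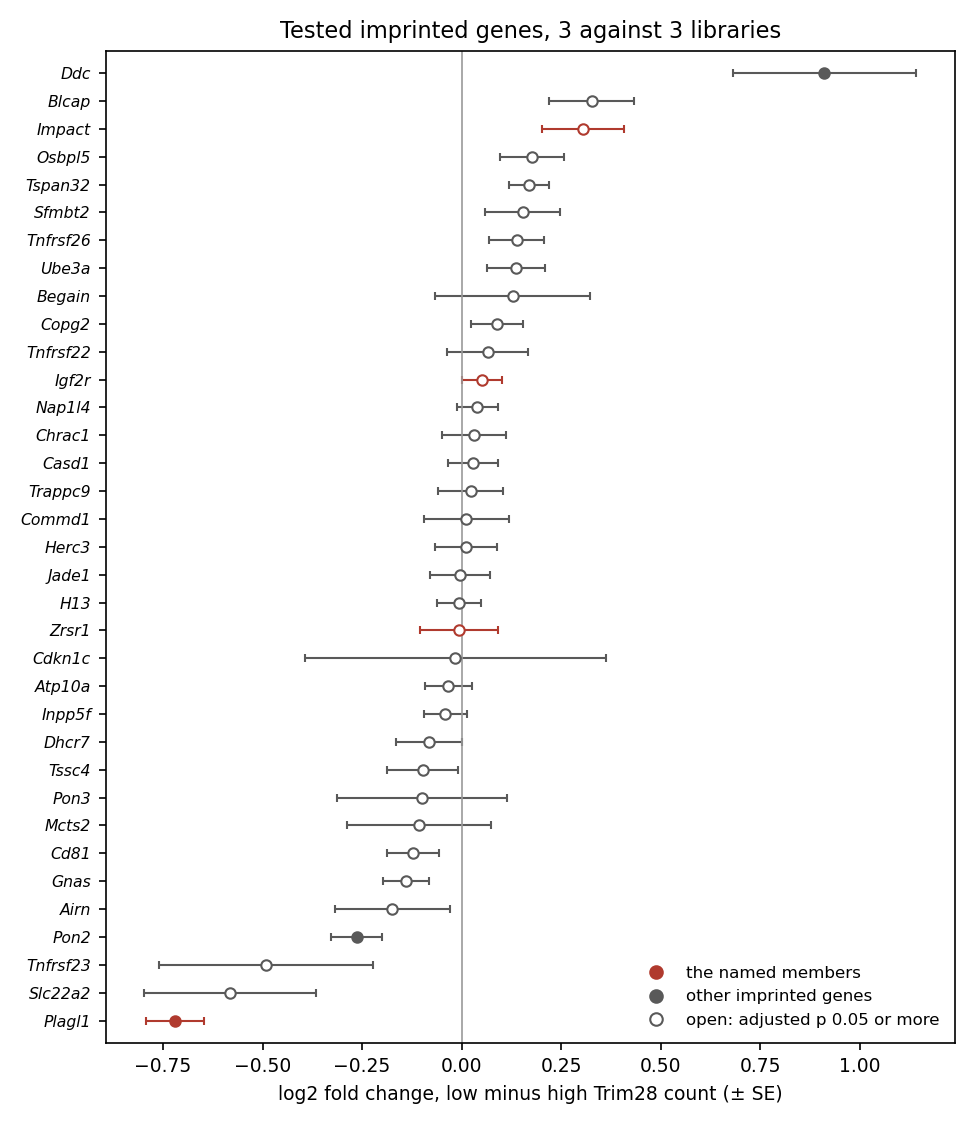
Log2 fold change with its SE of the 35 tested imprinted genes for the 3 low-Trim28 minus the 3 high-Trim28 libraries, members in red and other imprinted genes in grey. Filled points passed an edgeR adjusted p of 0.05: Plagl1 at -0.72, Pon2 at -0.26 and Ddc at 0.91.

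Genes of imprint maintenance were counted from a list of 23, all with a row and 17 tested. Zfp57, whose protein brings KAP1 to imprinted regions in the embryo, had 1 count in each of deficient replicates 2 and 3 and 0 in the other 4 libraries, under the floor of 3 counts. Zfp445, whose protein shares that role, was expressed at 116, 117 and 149 CPM in sufficient and 151, 144 and 126 CPM in deficient libraries. The authors' deposited table gives Zfp445 a mean level of 2860 against a mean deposited count of 1375, so its level is uncertain. Its log2 fold change there was -0.36 ± 0.06 (SE), the sign for higher in deficient cells, with an adjusted p of 2.72e-07. Under the labels 0 of the 17 were called by edgeR, with 1 at an unadjusted p under 0.05. In the 4 libraries without replicates 3, 4 were called higher and 4 lower, beside 17.4% of all genes.

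By Trim28 level 4 of these 17 genes were called, 3 higher and 1 lower, beside 8.23% of all tested genes. Zfp445 was higher where Trim28 was low (log2 fold change 0.32 ± 0.06, edgeR adjusted p = 0.00237). Setdb1, the H3K9 methyltransferase that KAP1 recruits, stood at 288 ± 2.94 in the low-Trim28 against 119 ± 2.21 CPM in the high-Trim28 libraries (SD, n = 3 each), or 1.29 ± 0.05 on the log2 scale (edgeR adjusted p = 5.46e-10). Atrx, a chromatin remodeller gene, was higher at 0.21 ± 0.06 (edgeR adjusted p = 0.0443), and lost the call without any single library other than deficient replicate 3, with upper-quartile factors and with the non-robust fit. Uhrf1, whose protein directs the maintenance methyltransferase to hemimethylated DNA, was lower at -0.32 ± 0.08 (edgeR adjusted p = 0.0302). It lost the call with DESeq2 and without any 1 of the libraries labelled sufficient 2, sufficient 3, deficient 1 or deficient 2 (-0.24 to -0.34). The authors' deposited table, as sufficient over deficient, calls Atrx (-0.19 ± 0.06 (SE), adjusted p = 0.0207) and Uhrf1 (0.27 ± 0.09, adjusted p = 0.0374). Dnmt1 is called there too (0.18 ± 0.06, adjusted p = 0.048), beside 6.87% of the genes with an adjusted p. The mean level of Uhrf1 there is 575 against a mean deposited count of 391, so its level is uncertain.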

How the data were processed

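RNA libraries of 6 sorted Treg samples were deposited as a table of raw counts, 1 row per Ensembl gene, with no scaling. The submitters' processing notes name TopHat2 2.1.1, HTSeq 0.7.2, DESeq2 and mm10. In the authors' own comparison the columns hold, per the file headers, the mean level over samples (a signal), log2 fold changes with SE, a test score, p-values, adjusted p-values and q-values.

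Symbols could be given to 32919 of 37991 rows. Rows lacking one held 0.603% of counts. Sample titles gave the groups. Fits used edgeR 4.0.16 under R 4.3.3 (quasi-likelihood with robust dispersion, TMM, filterByExpr, Benjamini-Hochberg threshold 0.05), and each SE was obtained from the fold change and its F value. High-Trim28 libraries exceeded 67.3 CPM of Trim28, the geometric mean of the lowest and highest library. Alternatives were DESeq2 1.42.0, RLE or upper-quartile factors, no filter, a replicate block, a non-robust fit and leaving out libraries. No library pair was alike within sampling noise (chi-square per degree of freedom at least 2.52). The fits were tested on simulated data in which all genes had the same dispersion and every difference followed the labels. Libraries that go against their label, as for Trim28 here, were not simulated.

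The members, lists and comparisons were chosen with earlier results of these data known. Genes named beside the members were Trim28, partner transcripts that overlap or host a member, and the 2 genes most like each tested member. Called genes of the other-imprinted list (up to 12), Zfp57, Zfp445 and called genes of the maintenance list (up to 6) were named too. Rian and Dnmt1 were named for their calls in the authors' deposited table. Plots and tables were made in Python 3.11.15 (pandas 2.3.3, numpy 2.4.6, matplotlib 3.10.9).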

Additional observations from a re-analysis of the deposited data

How the results depend on the processing

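By Trim28 level Plagl1 kept its call under all 12 alternatives, at log2 fold changes of -0.75 to -0.69 and adjusted p-values of 1.61e-14 to 0.000224. Under the labels it was called in 1 of 13, without both libraries numbered 3, where labels and Trim28 levels coincide. The label comparison, with 2 genes called, gave 6 with DESeq2, 0 with the replicate block (705 genes at an unadjusted p under 0.05, edgeR), 1 with the non-robust fit, 3 with no filter, 2114 without both libraries numbered 3, 807 without sufficient replicate 3 and 1 without any other single library. Members called under the labels went from 0 to 2 without both libraries numbered 3, and were 0 to 1 without single libraries, 1 being Impact without sufficient replicate 3. By Trim28 level the 1000 genes called became 1676 with no filter, which tested 18647 genes, 1117 with the replicate block, 2737 without deficient replicate 3, and 556 to 649 without any 1 of the other libraries (lowest without deficient replicate 1). The members called became 2, Impact being added, with no filter and with the replicate block, and were 1 to 2 without single libraries. Why these counts moved was not tested. Same-numbered libraries had deviations from their group means correlated at -0.365, -0.292 and -0.613 over 12158 genes, and no library correlated best with its own number. Each same-numbered pair holds 1 high-Trim28 and 1 low-Trim28 library, so these correlations say nothing about pairing, and the labels do not say that a number marks a shared source. The replicate block changed no call of a member other than that of Impact.

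Signs that turned were all of values that were not called. With upper-quartile factors Igf2r (-8.59e-05) and Commd1 (-0.0063) turned under the labels, and Commd1 (-0.014) and Herc3 (-0.015) by Trim28 level. Without single libraries the label values ranged from -0.0054 to 0.036 for Igf2r, from -0.063 to 0.070 for Commd1, from -0.014 to 0.124 for Herc3 and from -0.234 to 0.558 for Ddc, and the Trim28-level values from -0.074 to 0.061 for Zrsr1, from -0.061 to 0.073 for Commd1 and from -0.078 to 0.082 for Herc3. Genes under 3 counts (0.273 to 0.301 CPM) are beyond what the depth can resolve.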

Other observations

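Among the other imprinted genes, 4 had more than 3 counts in at least 1 library but too few to be tested by edgeR. Igf2, the growth factor gene whose product binds IGF2R, had 4, 6 and 19 counts under the sufficient label and 13, 9 and 10 under the deficient label. Ascl2, a helix-loop-helix factor gene, had 7, 4 and 5 counts in sufficient and 0, 0 and 6 in deficient libraries. Nespas, an antisense transcript of the Gnas locus, had 6, 7 and 3 counts and 3, 4 and 9 counts. Qpct, a glutaminyl cyclase gene, had 4, 4 and 6 counts and 9, 5 and 6 counts. None of these 4 genes was compared between groups.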
